A study of Mus musculus with 18 samples.

Results

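Cytochromes P450 and the conjugating enzymes that act after them were read out in eosinophils sorted from the mouse small intestine. The members are the genes whose symbol in the deposited table begins with Cyp and a digit, with Gst and a class letter (a, m, k, o, p, t or z), with Mgst, or with Ugt or Sult and a digit, leaving out Cyp1a1 and Cyp1b1. This gave 158 of the 22708 genes in the table: 96 cytochromes P450, 22 soluble and 3 membrane-bound glutathione transferases, 19 glucuronosyltransferases and 18 sulfotransferases. The symbol given for 1 member belongs to another gene by its Entrez ID, and it is named by the ID here (Cyp2c39). Another 4 genes have no symbol in the table but a matching one in RefSeq, and they are not members.

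RNA of sorted eosinophils was sequenced in bulk in 18 samples of 3 genotypes: wildtype (WT), Ahr-/- and Ahrr-/-, each with 3 females and 3 males, all of strain C57/BL6. According to the methods the epithelium was stripped with EDTA and CD11b+ cells were enriched on beads, and cells were then sorted as CD11b+ MHC-II- SiglecF+ SSChi. They also state that the WT and Ahr-/- mice were neither littermates nor housed together, so genotype and housing cannot be told apart. Per library, 3842977 to 12046933 counts fell in the genes of the table, with medians of 6022410 in WT, 9647590 in Ahr-/- and 10371556 in the libraries labelled Ahrr-/-.

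Cytochromes P450 are heme enzymes that insert oxygen into lipids, sterols, vitamins, drugs and dietary compounds, most of them with electrons from Por in the endoplasmic reticulum. Conjugating enzymes then attach glutathione, glucuronic acid or sulfate, and transporters export the products. In the gut these enzymes are best known from the absorptive epithelium, where ligands of the aryl hydrocarbon receptor (AHR, encoded by Ahr) induce some of them; Ahrr, itself an AHR target, encodes a repressor of AHR.

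The targeted genes serve as a check of the labels. Ahr had 6764 to 21536 counts in WT, 20189 to 28752 in Ahr-/- and 13191 to 24943 in the libraries labelled Ahrr-/-. Ahr transcript was therefore not lower in Ahr-/- than in WT (log2 difference 0.61, adjusted p = 0.0557 by limma). Ahrr had 550 to 1024 counts in WT, 0 to 10 in Ahr-/- and 1104 to 2151 in the libraries labelled Ahrr-/-. Its near absence sets all 6 Ahr-/- libraries apart, whereas the libraries labelled Ahrr-/- do not have less Ahrr transcript than WT (log2 difference 0.28, adjusted p = 0.683 by limma). Which part of Ahrr the allele removes is not given in the sources used here, so these samples are called the libraries labelled Ahrr-/-, and a difference that involves them is a difference between labels.

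The eosinophil label was checked against 10 marker genes. Per library, Ccr3 had 5730 to 18113 counts, Alox15 9057 to 33924, Itgam 9649 to 24374, Siglecf 867 to 4107 and Il5ra 985 to 3498. Transcripts of granule proteins were scarce: Epx had 4 to 22 counts, Prg3 0 to 37, Ear1 1 to 23 and Ear2 0 to 32, and Prg2 had 41 to 983. The surface receptors and Alox15 are thus abundant in all 18 libraries, and Epx, Prg3, Ear1 and Ear2 are near 0 in all of them.

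A pair of libraries stands apart from the others in how many genes they count. WT F3 (the third WT female) has at least 1 count for 20244 genes and Ahr-/- F3 for 19694, against 15146 to 17236 in the other 16 libraries. Of the members, 142 and 140 have a count there, against 79 to 101 elsewhere. Olfactory and vomeronasal receptor genes, which were looked at after this difference was seen, show the same: 74.2% of 1112 have a count in WT F3 and 55.6% in Ahr-/- F3, against 5.40% to 23.0%. WT F3 also has the fewest counts of all libraries (3842977). Detection, the members called between Ahr-/- and WT, and Cyp4v3 are given with and without these libraries.

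**Figure D1:**
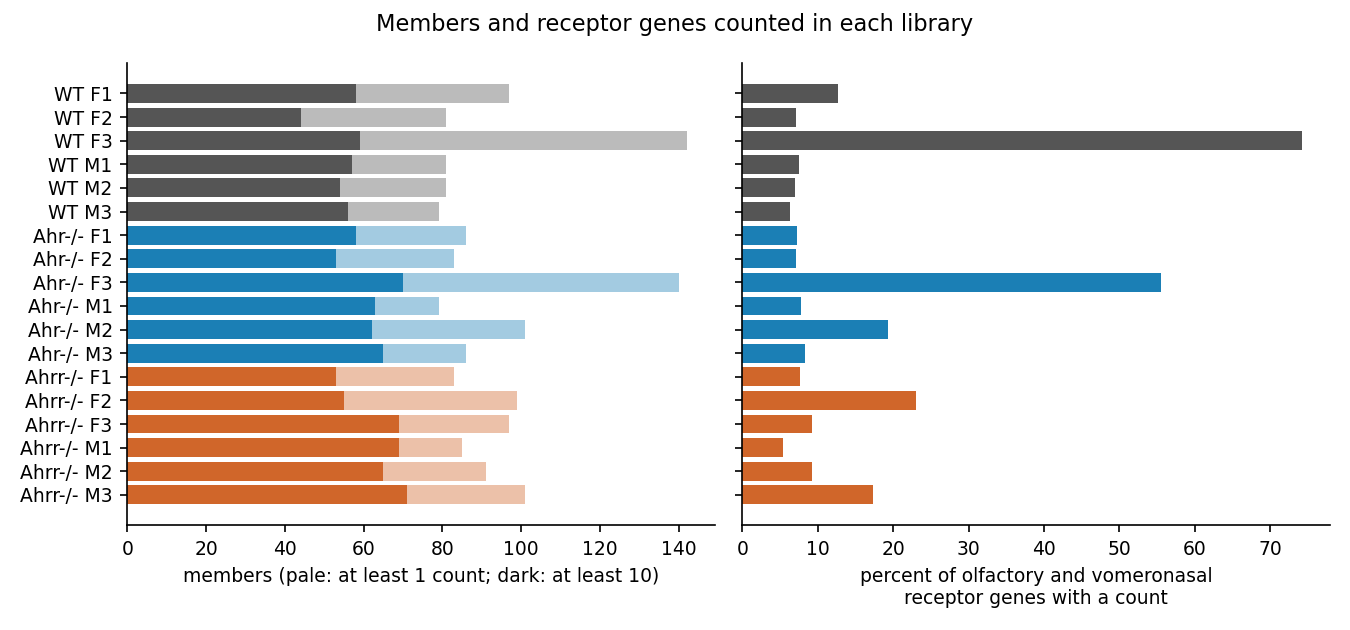
Left, members with at least 1 count (pale bars) and at least 10 counts (dark bars) in each of the 18 libraries; right, percent of 1112 olfactory and vomeronasal receptor genes with at least 1 count. WT F3 and Ahr-/- F3 have counts for 142 and 140 members, the other 16 libraries for 79 to 101.

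Markers of other cells also differ among the libraries. All 16 enterocyte marker genes were counted in all 18 libraries, with Sis the most abundant over all 18 together (427 to 7921 normalized counts, that is, counts divided by the library's size factor). In Ahr-/- the median of Krt19 (1330) was above that of Sis (1102). Summed over the 16 genes, normalized counts ran from 6694 to 26398 in WT (median 10789), from 4953 to 12677 in Ahr-/- (median 9845) and from 7585 to 40692 in the libraries labelled Ahrr-/- (median 28695). Ahrr-/- F3, M1 and M3 have the highest sums, 38284, 40692 and 40341. The 7 Paneth cell markers had medians of 6004, 6674 and 17898 in WT, Ahr-/- and the libraries labelled Ahrr-/- (Lyz1 the most abundant). The 6 goblet cell markers had 10308, 5377 and 20449 (Muc2 the most abundant). Both lists, like the enterocyte list, have their highest median in the libraries labelled Ahrr-/-. By exact two-sided permutation tests of the list means, adjusted over 12 lists, the goblet list was lower in Ahr-/- than in WT (difference -0.93, adjusted p = 0.0130) and the eosinophil list higher (0.40, adjusted p = 0.0130), and no list passed in the other genotype comparisons. All 6 eosinophil markers tested between Ahr-/- and WT were higher in Ahr-/- (median 0.36), but only Prg2 and Alox15 were called by limma. The median of Prg2 was 66.0 normalized counts in WT and 627 in Ahr-/-, and that of Ccr3 was 12557 and 12106. By summed counts, eosinophil (higher), goblet and endothelial (both lower in Ahr-/-) passed between Ahr-/- and WT. The endothelial sum is mostly Pecam1 (median 2023 of 2109 in Ahr-/-), the only endothelial marker called there. Acinar markers had median sums of 1406 in WT, 108 in Ahr-/- and 254 in the libraries labelled Ahrr-/-. Their list mean differed by -1.39 between Ahr-/- and WT (adjusted p = 0.0779 by exact permutation). All 8 tested were lower in Ahr-/-, and Ctrb1, Cela2a and Prss2 were called by limma. Between the libraries labelled Ahrr-/- and Ahr-/- the eosinophil sum was lower (-17658, adjusted p = 0.0416 by exact permutation), and goblet, Paneth, fibroblast, and plasma and B (mostly Jchain) were higher. Of the 6 eosinophil markers tested there, 4 were called lower by limma (Prg2, Il5ra, Siglecf and Alox15; median -0.74), and Ahrr-/- M3 has the lowest eosinophil sum (22751). The 12 macrophage and dendritic markers passed as a list in no genotype comparison, but Cd74 had 223 to 4665 counts per library and H2-Aa 111 to 2917. Between the libraries labelled Ahrr-/- and Ahr-/- 2 of 11 tested were called higher and 1 lower by limma (Cd68, Itgax and C1qb), beside 14.9% of all genes called. In bulk RNA, fewer cells of a type and less RNA per cell cannot be told apart.

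Of the 158 members, 67 were detected, meaning at least 10 counts in at least 6 of the 18 samples. This pools all genotypes, at unequal depth, so a detected member need not reach 10 counts in WT. The other 91 were low, and none was at 0 counts in all 18. Among the low ones, 63 stayed under 10 counts in every sample and 28 reached 10 in 1 to 5 samples. WT F3 and Ahr-/- F3 account for much of this low signal: 58 of the 91 have their highest count in one of them (40 in WT F3), 17 members have counts in these libraries only, and 52 have at most 3 counts over the other 16. Without these libraries 65 members were detected, the 2 lost being Cyp2b10 and Cyp2j9. With at least 10 counts in all 18 samples there were 36. Many members have close paralogs in clusters (Cyp2c, Cyp2d, Cyp3a, Cyp4a, Cyp4f, Gsta, Gstm, the Gstp genes, and the Ugt1a genes, which share exons), and how single-ended reads were split among them limits what a count for 1 paralog means.

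The families differ in how much of them is present. All 3 membrane-bound glutathione transferases and 20 of 22 soluble ones were detected (all but Gsta2 and Gstt4), against 29 of 96 cytochromes P450, 9 of 19 glucuronosyltransferases and 6 of 18 sulfotransferases. Among P450 families 1 to 3, which hold most drug-metabolizing forms, 14 of 58 were detected: Cyp2b10, Cyp2c55, Cyp2c65, Cyp2c66, Cyp2c68, Cyp2d22, Cyp2d26, Cyp2j6, Cyp2j9, Cyp2r1, Cyp2s1, Cyp2u1, Cyp3a13 and Cyp3a25. Not all of these are present in WT: Cyp2c55 had 0 to 5 counts there, and Cyp2b10 had 22 in WT F3 and 0 to 6 in the other WT libraries. Not detected were Cyp1a2 (at most 7 counts), Cyp2e1 (at most 21, and 10 or more in 1 sample), Cyp2a5 (at most 9), Cyp2c29 (at most 43, in WT F3) and Cyp3a11 (at most 36, and 10 or more in 5 samples). In family 4, whose members hydroxylate fatty acids and eicosanoids, 7 of 20 were detected, and all 7 had at least 10 counts in all 18 samples: Cyp4f13, Cyp4f14, Cyp4f16, Cyp4f17, Cyp4f18, Cyp4f40 and Cyp4v3. No Cyp4a gene was detected. From family 5 on, where sterol, steroid, bile acid and vitamin enzymes lie, 8 of 18 were detected: Cyp11a1, Cyp17a1, Cyp20a1, Cyp26a1, Cyp26b1, Cyp27a1, Cyp39a1 and Cyp51. Cyp24a1 and Cyp27b1, which inactivate and activate vitamin D, had at most 7 and 2 counts.

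Per kilobase of exon, Cyp4f18 is the most abundant member by far, with a mean of 1839 normalized counts. Next come Mgst3 (367), Cyp51 (286), Mgst1 (282), Gstm3 (192), Gsto1 (169.9), Ugt2b34 (129), Sult1b1 (125), Gstm1 (118) and Cyp4f14 (117). These means are over all 18 libraries, and the order differs between groups: the median per kilobase of Mgst3 was 209 in WT, 232 in Ahr-/- and 511 in the libraries labelled Ahrr-/-, and that of Cyp51 was 227, 386 and 249. The list thus holds a leukotriene-hydroxylating P450, membrane-bound glutathione transferases and a sterol enzyme, and beside them enzymes known from enterocytes. For Mgst1 and Mgst3 too the 3 highest libraries are Ahrr-/- F3, M1 and M3, which have the highest enterocyte sums.

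Members were compared between genotypes by limma on the deposited log2 values, adjusting for sex and testing only genes with a mean at least 1 above the lowest value, and called at an adjusted p below 0.05. WT is shared by the first 2 comparisons and Ahr-/- by the first and the last, so they are not independent: a change confined to the Ahr-/- libraries appears in both of the latter with opposite signs. Between Ahr-/- and WT 4 of 49 tested members were called, all higher in Ahr-/- (8.16%), beside 8.84% of all 11346 genes called and 5.16% called higher, so the share is near the background. Among the 10 members that pass a stricter minimum, 3 above the lowest value, the same 4 are called, beside 12.6% of all genes. The members' median difference was -0.03, that of all genes -0.00. The count was 2 with all 18 samples in one fit (4.82% of all genes called), 6 with sample weights (9.34%) and 8, all higher, with the enterocyte list mean as a covariate, a setting added after seeing the data (12.3%). Without WT F3 and Ahr-/- F3, also chosen after seeing the data, 3 of 50 were called (5.2%). Between the libraries labelled Ahrr-/- and WT 0 of 54 were called, beside 0.0779% of all genes; 12 had an unadjusted p below 0.05 (22.2%, against 7.39% of all genes), and limma with voom weights on the recovered counts also called 0. The 12 became 5 without WT M1, WT M2 or Ahrr-/- F3, 6 without Ahrr-/- M3, 7 without Ahrr-/- M1, 23 without Ahrr-/- F2, 25 without Ahrr-/- F1 and 27 without WT F1, while the share of all genes ran from 4.39% (without Ahrr-/- F3) to 14.3% (without WT F1). They became 28 of 54 with sample weights (14.9% of all genes) and 2 of 54 with the enterocyte list mean as a covariate (7.14%). Without Ahrr-/- F3, M1 and M3 together there were 0 of 48 (3.27%). In the main fit 43 of the 54 were higher, with a median of 0.35 against 0.01 for all genes, and the smallest p was that of Gsta1 (log2 difference 1.10, adjusted p = 0.400). Between the libraries labelled Ahrr-/- and Ahr-/- 15 of 56 were called (26.8%, against 14.9% of all genes): 10 higher (background 8.04%) and 5 lower (background 6.84%) in the libraries labelled Ahrr-/-, with a median of 0.35 against -0.00. Of the 10, Cyp39a1 and Gstp2 have an Ahr-/- mean below the minimum for testing, which they passed over both groups together. The p-values rest on the samples being separate, as labelled, and the variance-stabilized scale understates changes of genes with few counts.

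The last count depends on single libraries, and the share of all genes moves with it. Beside 14.9% of all genes with every library, it was 5 without Ahrr-/- F3 (8.76% of all genes), 7 without Ahrr-/- M1 (1378 of 11465 genes), 7 without Ahrr-/- M3 (8.09%), 25 without Ahrr-/- F1 (22.3%), 24 without Ahrr-/- F2 (19.9%) and 22 without Ahrr-/- M2 (16.5%). Leaving out Ahr-/- libraries gave 6 without F1 (7.88%), 6 without F2 (8.42%), 20 without F3 (17.3%), 7 without M1 (7.30%), 8 without M2 (8.12%) and 5 without M3 (7.12%). Without Ahrr-/- F3, M1 and M3 together, a setting added after seeing the data, 2 of 50 members were called, both lower, beside 626 of 11320 genes (5.53%), so the share is near the background. With the enterocyte list mean as a covariate 3 of 56 were called, all lower (Cyp51, Gsta3 and Gstm3), beside 381 of 11474 genes (3.32%). Without Ahrr-/- F3, M1 and M3 the median of the members against WT was -0.05, with 21 of 48 higher and 0 called.

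**Figure D2:**
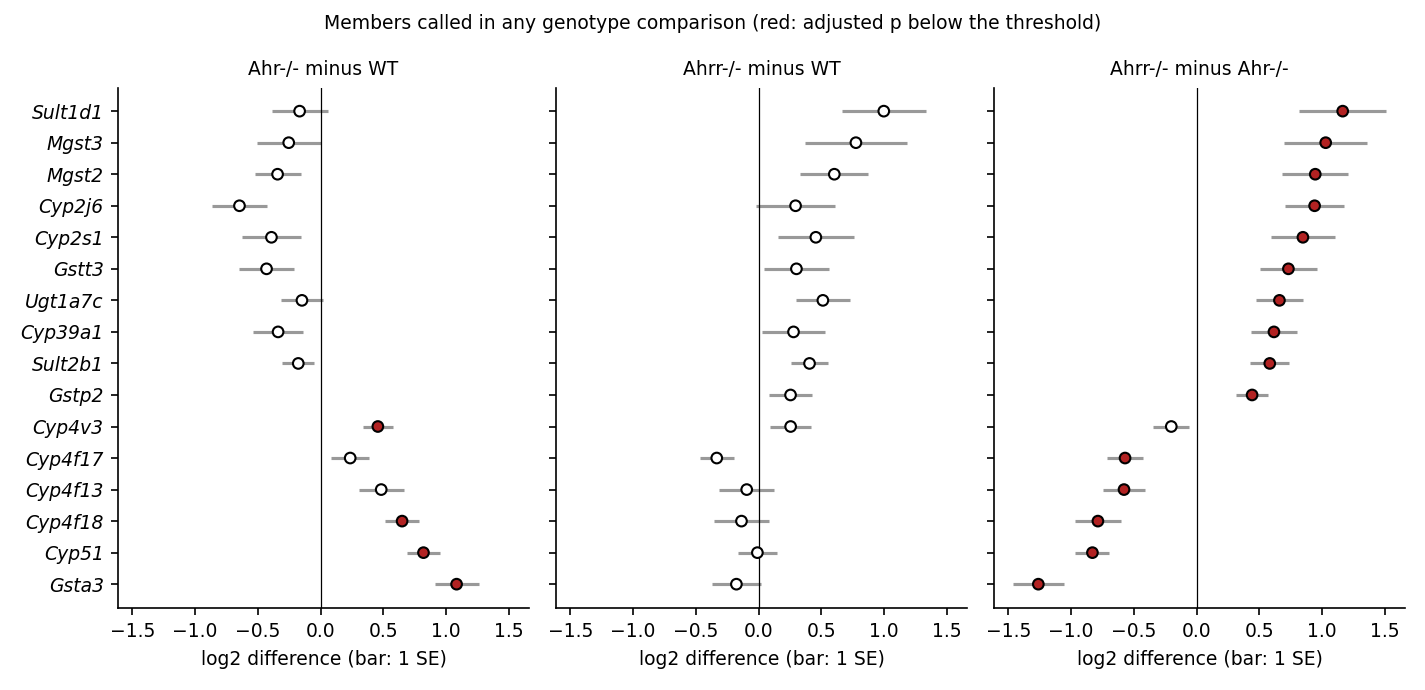
Log2 differences of the 16 members called in any genotype comparison, with bars of 1 standard error; red points have an adjusted p below 0.05, and Gstp2 was too low to be tested between Ahr-/- and WT. The 4 members called between Ahr-/- and WT are all higher in Ahr-/-, and none is called between the libraries labelled Ahrr-/- and WT.

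Cyp4f18, which hydroxylates leukotriene B4 and other fatty acids in leukocytes, had 2337 to 3704 normalized counts in WT (median 2841), 3411 to 5784 in Ahr-/- (median 4836) and 1299.9 to 4260.1 in the libraries labelled Ahrr-/- (median 2468). Of the 6 Ahr-/- libraries, 4 lie above all of WT, and the male libraries M1 and M2 overlap WT. It was higher in Ahr-/- than in WT (log2 difference 0.65, standard error 0.14, adjusted p = 0.00662) and lower in the libraries labelled Ahrr-/- than in Ahr-/- (-0.79, standard error 0.19, adjusted p = 0.0146). In one fit of all 18 samples the first had an adjusted p of 0.0518 (0.000513 to 0.0518 over the alternatives), and without Ahrr-/- F3, M1 and M3 the second was -0.46 with an adjusted p of 0.0577. The second was also not called with no sex covariate or with the enterocyte list mean as a covariate. Over the alternatives its adjusted p went up to 0.2525 by limma. The eosinophil markers lie the same way in both comparisons, and Ahrr-/- M3, with the lowest eosinophil sum, is also the lowest library for Cyp4f18 and Cyp51. The part of eosinophil RNA in these differences was not tested.

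Cyp4v3, a fatty acid hydroxylase, had 196 to 326 normalized counts in WT (median 244), 336 to 463 in Ahr-/- (median 364) and 243 to 480.1 in the libraries labelled Ahrr-/- (median 302). All Ahr-/- libraries lie above all WT libraries (log2 difference 0.46, standard error 0.12, adjusted p = 0.0253), and the libraries labelled Ahrr-/- span both. Its call is lost without WT F3 (adjusted p = 0.0611), WT M2 (0.0526), WT M3 (0.0567) or Ahr-/- F3 (0.0629), and the difference is 0.34 without WT F3 and Ahr-/- F3 (adjusted p = 0.112). It is also lost with the replicate block (adjusted p = 0.0501) and with all 18 samples in one fit (0.0734).

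Among the other family 4 enzymes, Cyp4f13 had 221 to 578 normalized counts in WT, 404 to 669 in Ahr-/- and 193 to 446 in the libraries labelled Ahrr-/-, and Cyp4f17 28.5 to 61.9, 31.2 to 107 and 12.9 to 30.1. Both were called lower in the libraries labelled Ahrr-/- than in Ahr-/- (Cyp4f13 -0.58, adjusted p = 0.0315; Cyp4f17 -0.57, adjusted p = 0.0187). For Cyp4f17 these labels do not overlap. Without Ahrr-/- F3, M1 and M3 the differences were -0.43 (adjusted p = 0.129) and -0.41 (adjusted p = 0.188). The call of Cyp4f13 is lost without Ahrr-/- F3 or without any 1 of Ahr-/- F1, F2, M1, M2 and M3 (adjusted p up to 0.0759). Cyp4f16 had medians of 77.2, 51.7 and 88.9 and was not called. Cyp4f14, an intestinal form, goes the other way, with medians of 217 in WT, 164 in Ahr-/- and 538 in the libraries labelled Ahrr-/-, and it was not called between the Ahrr-/- and Ahr-/- labels (adjusted p = 0.0594).

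Cyp51, the lanosterol demethylase of cholesterol synthesis, had 754 to 1242 normalized counts in WT (median 1001), 1358 to 2374 in Ahr-/- (median 1705) and 643 to 1196 in the libraries labelled Ahrr-/- (median 1099.5). The Ahr-/- libraries lie above all 12 others, and the highest are the females F1 and F2. It was higher in Ahr-/- than in WT (log2 difference 0.82, standard error 0.13, adjusted p = 0.000683) and lower in the libraries labelled Ahrr-/- than in Ahr-/- (-0.83, standard error 0.14, adjusted p = 0.00139). Both calls stood in all 26 alternatives, with differences of 0.75 to 0.93 and -0.93 to -0.76. Without Ahrr-/- F3, M1 and M3 the second was -0.85.

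The retinoic acid hydroxylases Cyp26a1 and Cyp26b1, which clear retinoic acid, were detected in all 18 libraries. Cyp26a1 had medians of 86.1 normalized counts in WT, 93.7 in Ahr-/- and 49.3 in the libraries labelled Ahrr-/-, and Cyp26b1 30.8, 39.3 and 29.8; neither was called in any genotype comparison. Cyp20a1 had medians of 66.7, 59.6 and 63.6, with the groups overlapping. Cyp27a1, the mitochondrial sterol hydroxylase, had medians of 12.1, 21.1 and 32.9 and was not called. Cyp39a1, an oxysterol hydroxylase, had 10.1 to 21.6 in Ahr-/- and 19.5 to 96.5 in the libraries labelled Ahrr-/- (log2 difference 0.62, adjusted p = 0.0359). Its Ahr-/- mean lies just below the minimum for testing, which it passed over both groups together. With no minimum the adjusted p was 0.0646 by limma.

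Among P450 families 1 to 3, Cyp2s1, Cyp3a13 and Cyp2j6 had the highest normalized counts. Cyp2s1, a P450 of barrier epithelia that dioxin induces, had medians of 112 in WT, 102 in Ahr-/- and 242 in the libraries labelled Ahrr-/-. Cyp2j6, a fatty acid epoxygenase, had 59.2 to 167 in WT (median 108), 19.2 to 97.9 in Ahr-/- (median 56.0) and 50.03 to 309.8 in the libraries labelled Ahrr-/- (median 139.6). The groups overlap, and the highest libraries are Ahrr-/- M3, M1 and F3. Both were called higher in the libraries labelled Ahrr-/- than in Ahr-/- (Cyp2j6 0.94, adjusted p = 0.0186; Cyp2s1 0.85, adjusted p = 0.0375). Without Ahrr-/- F3, M1 and M3 the differences were 0.38 (adjusted p = 0.189) and 0.40 (adjusted p = 0.395). Cyp3a13 (medians 94.1, 60.2 and 216) and Cyp2c65 (56.7, 34.0 and 107) were not called, nor was Cyp2r1, a vitamin D hydroxylase with medians of 26.4, 21.5 and 22.3. Further epithelial forms had lower medians in WT, Ahr-/- and the libraries labelled Ahrr-/-: Cyp3a25 18.5, 23.3 and 47.8, Cyp2d26 16.3, 20.96 and 46.6, Cyp2c66 6.21, 13.6 and 32.1, Cyp2c55 1.99, 10.9 and 24.6, and Cyp2b10 4.06, 8.05 and 20.3. None of these was called where tested, and Cyp2c55 and Cyp2b10 were too low to be tested.

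Gsta3, an alpha class glutathione transferase that detoxifies electrophiles such as aflatoxin epoxide, had 127 to 270.3 normalized counts in WT (median 185), 287 to 666 in Ahr-/- (median 494) and 92.2 to 242 in the libraries labelled Ahrr-/- (median 159). All Ahr-/- libraries lie above all 12 others. It was higher in Ahr-/- than in WT (log2 difference 1.09, standard error 0.18, adjusted p = 0.000855) and lower in the libraries labelled Ahrr-/- than in Ahr-/- (-1.26, standard error 0.20, adjusted p = 0.00118). Both calls stood in all 26 alternatives, with differences of 0.97 to 1.35 and -1.56 to -0.95. Gsta1 and Gsta4 did not share this pattern: Gsta1 had medians of 23.2, 43.7 and 96.1 and Gsta4 37.2, 49.5 and 83.0, with overlapping groups and no call.

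RefSeq promoters (GRCm38.p6, 250 bases before to 50 after the gene start) are shown for the 4 members called between Ahr-/- and WT, since these carry the difference. They were searched on both strands for GCGTG, the core of the AHR response element, and for TGACNNNGC, the core of the antioxidant response element bound by NRF2; the capitals mark the matches. Cyp51 lies at chr5:4104648-4104947 (minus strand) and holds GCGTG at 2 positions, Cyp4v3 at chr8:45333114-45333413 (minus strand) and holds GCGTG once, Gsta3 at chr1:21240335-21240634 (plus strand) and Cyp4f18 at chr8:72009577-72009876 (minus strand), and both hold TGACNNNGC once.
Cyp51: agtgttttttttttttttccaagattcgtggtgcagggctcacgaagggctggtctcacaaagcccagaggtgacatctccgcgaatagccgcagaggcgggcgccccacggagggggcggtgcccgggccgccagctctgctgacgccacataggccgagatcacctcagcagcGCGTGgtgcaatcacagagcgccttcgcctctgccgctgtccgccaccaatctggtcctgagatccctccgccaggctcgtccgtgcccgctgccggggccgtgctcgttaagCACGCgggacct
Cyp4v3: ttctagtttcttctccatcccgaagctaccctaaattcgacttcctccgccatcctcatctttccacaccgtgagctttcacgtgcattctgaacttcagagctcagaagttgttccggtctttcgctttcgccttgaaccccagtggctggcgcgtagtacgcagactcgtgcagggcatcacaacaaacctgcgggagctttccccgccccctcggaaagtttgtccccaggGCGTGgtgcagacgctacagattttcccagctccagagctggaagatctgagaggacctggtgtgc
Gsta3: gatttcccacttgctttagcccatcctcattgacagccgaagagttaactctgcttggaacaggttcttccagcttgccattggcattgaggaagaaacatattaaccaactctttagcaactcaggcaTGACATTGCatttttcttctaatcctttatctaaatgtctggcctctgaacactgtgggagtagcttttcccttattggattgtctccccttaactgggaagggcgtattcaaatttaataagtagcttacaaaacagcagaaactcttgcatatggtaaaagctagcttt
Cyp4f18: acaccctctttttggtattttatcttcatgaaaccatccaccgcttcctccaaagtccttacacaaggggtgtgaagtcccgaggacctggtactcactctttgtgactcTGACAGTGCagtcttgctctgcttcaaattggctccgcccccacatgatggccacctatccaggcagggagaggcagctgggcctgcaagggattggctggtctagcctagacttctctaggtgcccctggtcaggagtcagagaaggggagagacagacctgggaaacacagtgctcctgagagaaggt
Of all 32851 promoters in the reference, 32.4% hold GCGTG and 12.4% hold TGACNNNGC. A promoter entry was found for 129 members, with 151 promoters, of which 19.9% and 6.62% hold the motifs. Of the 16 members called in any genotype comparison, 14 have an entry, and 5 and 3 of these hold GCGTG and TGACNNNGC. A match is a description of letters, not a binding site.

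**Figure D3:**
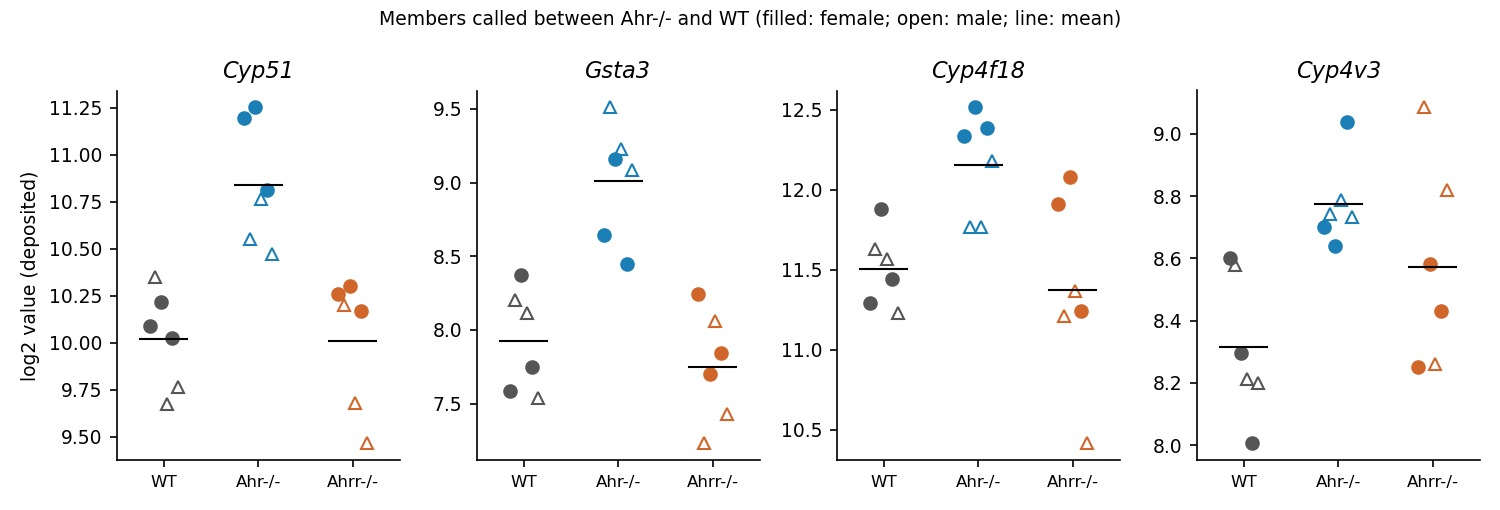
Deposited log2 values of the 4 members called between Ahr-/- and WT in each of the 18 samples (filled circles, females; open triangles, males; lines, group means). For Cyp51 and Gsta3 the 6 Ahr-/- samples lie above all 12 others.

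Of the mu class, Gstm3 and Gstm1 were the most abundant. Gstm3, known from the gut epithelium, had 64.0 to 228 normalized counts in WT (median 97.3), 85.2 to 504 in Ahr-/- (median 247) and 57.1 to 724 in the libraries labelled Ahrr-/- (median 367). It was not called (Ahr-/- minus WT 0.75, adjusted p = 0.169). Gstm1 had medians of 115, 182 and 210.2, and Gstm2 19.0, 27.5 and 35.7. In the pi class Gstp1 had medians of 67.4, 90.3 and 144, Gstp3 48.3, 40.8 and 57.7, and Gstp2 17.1, 9.15 and 29.8. Gstp2 was called higher in the libraries labelled Ahrr-/- than in Ahr-/- (0.44, adjusted p = 0.0337 by limma). Its Ahr-/- mean lies below the minimum for testing, which it passed over both groups together. With no minimum the adjusted p was 0.0625. Gstt3 of the theta class (75.1, 51.3 and 115) was also called there (0.73, adjusted p = 0.0435). Gstt2 (68.9, 86.2 and 78.7), Gstt1 (13.8, 14.7 and 35.1), Gsto2 (51.7, 61.5 and 45.4), Gsto1, which reduces dehydroascorbate and arsenicals (296, 294 and 437), Gstz1, the maleylacetoacetate isomerase (63.1, 76.2 and 94.5), and Gstk1 of mitochondria and peroxisomes (39.2, 36.7 and 59.0) were called in no genotype comparison.

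The membrane-bound glutathione transferases were all abundant. Mgst1 had 296 to 637 normalized counts in WT, 462 to 639.9 in Ahr-/- and 322 to 1517 in the libraries labelled Ahrr-/-. Mgst2, which can make leukotriene C4, had medians of 154, 104 and 316, and Mgst3 229, 254 and 561. The highest library for Mgst1 and Mgst3 is Ahrr-/- M1, and for Mgst2 it is Ahrr-/- M3. Mgst2 and Mgst3 were called higher in the libraries labelled Ahrr-/- than in Ahr-/- (0.95, adjusted p = 0.0296; 1.03, adjusted p = 0.0481), and without Ahrr-/- F3, M1 and M3 the differences were 0.41 (adjusted p = 0.349) and 0.26 (adjusted p = 0.583).

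Of the glucuronosyltransferases, 4 of 8 Ugt1 genes (Ugt1a1, Ugt1a5, Ugt1a6a and Ugt1a7c) and 5 of 11 Ugt2, Ugt3 and Ugt8 genes (Ugt2a3, Ugt2b5, Ugt2b34, Ugt2b35 and Ugt2b36) were detected. Ugt2b34 leads with medians of 422 normalized counts in WT, 286 in Ahr-/- and 760.1 in the libraries labelled Ahrr-/-, and was not called between the Ahrr-/- and Ahr-/- labels (0.97, adjusted p = 0.0510). Ugt1a7c had 10.3 to 66.9 in WT, 11.0 to 50.8 in Ahr-/- and 27.9 to 133 in the libraries labelled Ahrr-/- and was called higher there than in Ahr-/- (0.66, adjusted p = 0.0293). Ugt1a6a, a phenol-conjugating form that AHR induces in liver, had medians of 20.3, 22.6 and 43.1 and was not called. Nor, where tested, were Ugt2a3 (73.8, 58.6 and 143), Ugt2b35 (56.2, 40.2 and 76.1), Ugt1a1 (9.79, 17.4 and 34.3) and Ugt2b5 (9.76, 24.3 and 27.1), and Ugt2b36 (8.98, 8.82 and 11.8) was too low to be tested.

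Of the sulfotransferases, Sult1a1, Sult1b1, Sult1d1, Sult2b1, Sult6b1 and Sult6b2 were detected. Sult1b1, a phenol and thyroid hormone sulfotransferase of the gut, had 99.2 to 482 normalized counts in WT, 72.0 to 302 in Ahr-/- and 146 to 1260.1 in the libraries labelled Ahrr-/- (not called against Ahr-/-, 1.08, adjusted p = 0.0513). Sult1d1, which sulfates catecholamines, had medians of 117, 105 and 323, and Sult2b1, a sterol sulfotransferase, 41.9, 24.2 and 73.0. Both were called higher in the libraries labelled Ahrr-/- than in Ahr-/- (1.17, adjusted p = 0.0373; 0.58, adjusted p = 0.0229).

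Most calls of the 10 members higher in the libraries labelled Ahrr-/- than in Ahr-/- lie near the threshold. Only Cyp2j6 kept its call when each single library was left out. Sult2b1 lost it without Ahr-/- F1 (adjusted p = 0.0519), Ahr-/- M3 (0.0595) or Ahrr-/- F3 (0.0526). The other 8 lost it without Ahrr-/- F3, and without 5 to 7 further libraries among Ahr-/- F1, F2, M1, M2 and M3 and Ahrr-/- M1 and M3, with adjusted p up to 0.114. Over the single libraries left out, the difference of Sult1d1 ran from 0.95 to 1.35, that of Cyp2s1 from 0.66 to 1.03 and that of Mgst3 from 0.81 to 1.28. No difference changed sign in any alternative.

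**Figure D4:**
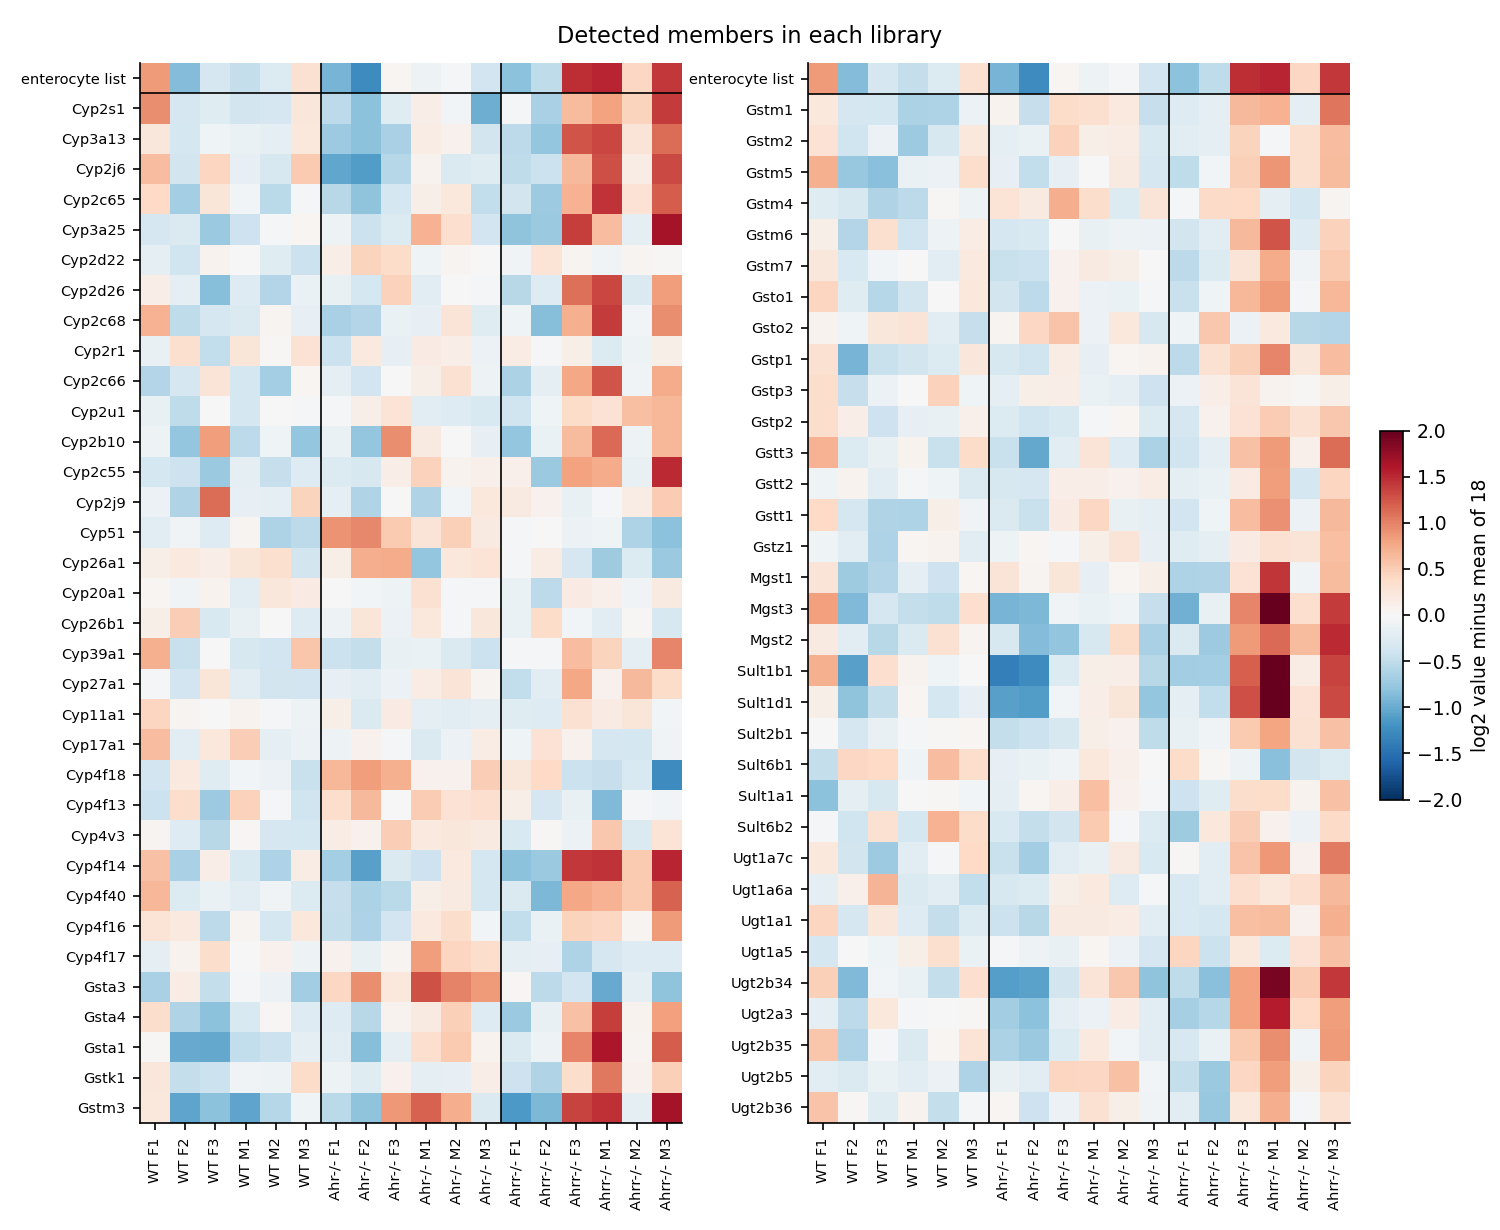
Deposited log2 values of the 67 detected members and the mean of the enterocyte list in each of the 18 libraries, as the difference from the gene's mean over the 18 (colours end at 2 on either side). Ahrr-/- F3, M1 and M3 are the 3 highest libraries for 30 of the 67 members and for the enterocyte list.

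The libraries with the highest enterocyte sums are also the highest for many members. Ahrr-/- F3, M1 and M3 are the 3 highest libraries for 30 of the 67 detected members. Among genes tested over all 18 samples, this holds for 26 of 54 members (48.1%) and for 646 of all 11468 genes (5.63%). It holds for 6 of the 10 members called higher in the libraries labelled Ahrr-/- than in Ahr-/-, and all 5 called lower have none of these libraries among their 3 highest. The direction of a call bears on which libraries are highest, so this split is a description and no test. None of these libraries is among the 3 highest for 12 detected members in all: Cyp17a1, Cyp26a1, Cyp26b1, Cyp2d22, Cyp2r1, Cyp4f13, Cyp4f17, Cyp4f18, Cyp51, Gsta3, Gsto2 and Sult6b1.

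For 18 enzymes listed as intestinal epithelial (Cyp3a11, Cyp3a13, Cyp3a25, Cyp2b10, Cyp2c29, Cyp2c55, Cyp2c65, Cyp2c66, Cyp2d26, Cyp2j6, Cyp4f14, Ugt2b5, Ugt2b34, Ugt2b36, Sult1b1, Sult1d1, Sult2b1 and Gstm3), normalized counts summed to 819 to 2451 in WT (median 1594), 622 to 2288 in Ahr-/- (median 1354) and 858 to 6882 in the libraries labelled Ahrr-/- (median 3319). Over the 18 libraries the sum spans 11.1-fold and the enterocyte marker sum 8.22-fold. Per 100 enterocyte marker counts there were 9.29 to 20.3 counts of these enzymes, a 2.18-fold span, with medians of 11.9 in WT, 13.1 in Ahr-/- and 12.1 in the libraries labelled Ahrr-/-. Of these enzymes 3 of 13 tested were called higher in the libraries labelled Ahrr-/- than in Ahr-/- (Cyp2j6, Sult1d1 and Sult2b1), beside 7 of 16 enterocyte markers and 8.04% of all genes. In either comparison with WT 0 of 11 were called, beside 8.84% of all genes for Ahr-/- and 0.0779% for the libraries labelled Ahrr-/-. The part of enterocyte RNA in these differences was not tested beyond the settings given.

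**Figure D5:**
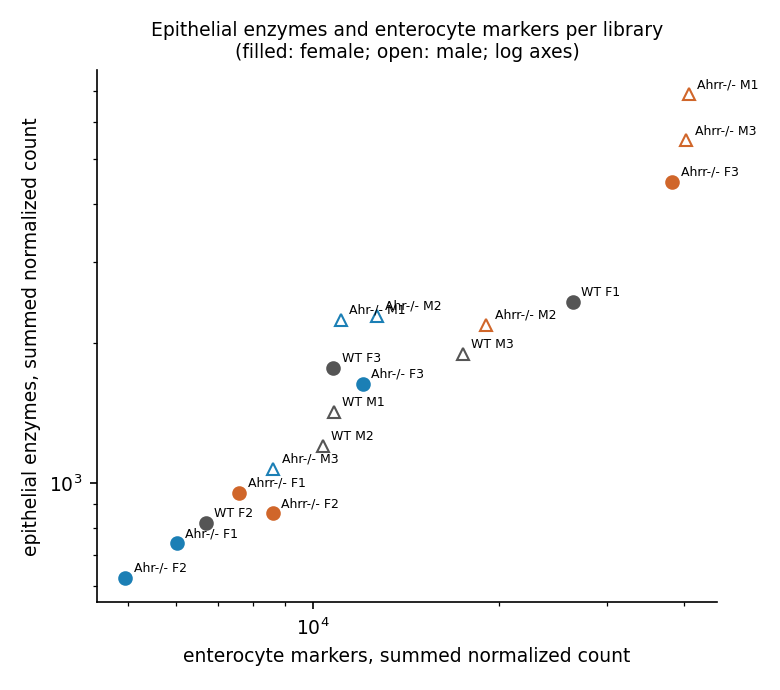
Summed normalized counts of 18 epithelial enzymes against those of 16 enterocyte markers in each of the 18 libraries, both axes logarithmic. The enzymes span 622 to 6882 and the markers 4953 to 40692, and Ahrr-/- F3, M1 and M3 are highest for both.

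Of 16 members listed as leukocyte P450s or membrane-bound glutathione transferases (Cyp4f13, Cyp4f16, Cyp4f18, Cyp4v3, Cyp7b1, Cyp20a1, Cyp24a1, Cyp26a1, Cyp26b1, Cyp27a1, Cyp27b1, Cyp2r1, Cyp51, Mgst1, Mgst2 and Mgst3), 13 were tested. Those called are Cyp51, Cyp4f18 and Cyp4v3, higher in Ahr-/- than in WT (beside 8.84% of all genes), and 5 between the Ahrr-/- and Ahr-/- labels (beside 14.9%): Cyp51, Cyp4f18 and Cyp4f13 lower and Mgst2 and Mgst3 higher in the libraries labelled Ahrr-/-. The list was drawn up with earlier results of these data known, so these counts say nothing about leukocyte enzymes as a class. Cyp7b1 had at most 7 counts.

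The AHR battery list holds only members, so Cyp1b1 and Nqo1 are outside it. Of its 7 members (Cyp1a2, Ugt1a1, Ugt1a6a, Ugt1a6b, Ugt1a7c, Gsta1 and Gsta2), Cyp1a2, Gsta2 and Ugt1a6b were low (at most 7, 7 and 28 counts) and 3 were tested between Ahr-/- and WT, where 0 were called and 1 was higher in Ahr-/- (median difference -0.03). In the libraries labelled Ahrr-/- all 4 tested were higher than in WT (median 0.43, 0 called), beside 43 of 54 members. All 4 were also higher than in Ahr-/-, beside 42 of 56 members, and Ugt1a7c was called, beside 8.04% of all genes called higher. The call of Ugt1a7c is lost without Ahrr-/- F3, M1 and M3 and with the enterocyte list mean as a covariate. Over all alternatives its difference went down to 0.25 and its adjusted p up to 0.534 by limma. Ahrr-/- F3, M1 and M3, with the highest enterocyte sums, are the 3 highest libraries for Gsta1, Ugt1a1 and Ugt1a7c. Cyp1a2 had 0 to 7 counts per library and was too low to be tested. Among the 10 members listed as NRF2 targets (Gsta1 to Gsta4, Gstm1, Gstm3, Gstp1, Gstp2, Mgst1 and Cyp2a5), 7 were tested between Ahr-/- and WT; all 7 were higher in Ahr-/-, with a median of 0.36, beside 22 of 49 members, and Gsta3 was the only call, beside 8.84% of all genes. In the libraries labelled Ahrr-/- 7 of 8 were also higher than in WT (median 0.60, 0 called), beside 43 of 54 members. Both comparisons subtract the same WT libraries, so nothing is concluded from the shared direction. Compared with Ahr-/-, 7 of 8 were higher in the libraries labelled Ahrr-/- (median 0.34), beside 42 of 56 members, with Gstp2 called higher and Gsta3 lower, beside 14.9% of all genes called. The gene of NRF2 itself, Nfe2l2, had medians of 2560.2 normalized counts in WT and 1715 in Ahr-/- (log2 difference -0.43, adjusted p = 0.0504), and was higher in the libraries labelled Ahrr-/- than in Ahr-/- (0.66, adjusted p = 0.00417).

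Other genes of the pathway were counted beside these, against 8.84% of all genes called between Ahr-/- and WT and 14.9% between the Ahrr-/- and Ahr-/- labels. Of 8 electron donors 0 were called between Ahr-/- and WT, and Cyb5r1 was called lower in the libraries labelled Ahrr-/- than in Ahr-/- (-0.48, adjusted p = 0.0372); Por had medians of 476, 516 and 503 normalized counts in WT, Ahr-/- and the libraries labelled Ahrr-/-. Of 9 enzymes in the metabolism of glutathione, activated sulfate or UDP-glucuronate, 0 were called between Ahr-/- and WT. Gss was called higher in the libraries labelled Ahrr-/- than in Ahr-/- (0.51, adjusted p = 0.0334 by limma). Of 7 tested exporters of conjugates 3 were called higher in Ahr-/- than in WT: Abcg2 (medians 574 and 1387, log2 difference 1.24, adjusted p = 2.19e-07), Abcc2 (793 and 1287, 0.69, adjusted p = 0.00651) and Abcc5 (621 and 857, 0.44, adjusted p = 0.0230). All 3 were called lower in the libraries labelled Ahrr-/- than in Ahr-/-, a comparison that rests on the same Ahr-/- libraries. Of 14 tested further phase I and II enzymes 3 were called, all lower in Ahr-/- (Aox2, Aox4 and Nqo1) and all higher in the libraries labelled Ahrr-/- than in Ahr-/-, and none of the 49 tested members was called lower in that comparison. Without WT M2, Cyp2j6 was (-0.77, adjusted p = 0.0424).

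Between the sexes, over all 18 samples with genotype as covariate, 0 of 54 members were called by limma (background 3.06%), and 0 with voom weights. At an unadjusted p below 0.05 there were 20 (37.0%, against 18.7% of all genes), and 32 without WT F1 (24.8% of all genes), 11 without Ahrr-/- F1 (16.7%), 12 without Ahrr-/- F2 (14.4%), 12 without Ahrr-/- M1 (19.3%) and 13 without Ahrr-/- M3 (15.4%). Of the 54, 8 were higher in females, with a median of -0.28 (all genes -0.01). The count was 3 without WT F1 (6.40% of all genes called), 1 without WT M1 (5.18%), 1 without Ahrr-/- F3 (5.05%), 1 without Ahrr-/- M1 (3.49%) and 6 with sample weights (11.4%). The members nearest the threshold include Cyp51, higher in females (0.38, adjusted p = 0.0781), and Mgst2, lower in females (-0.61, adjusted p = 0.116). All 16 enterocyte markers were lower in females, with a median of -0.50 and 0 called. Of 11 macrophage and dendritic markers tested, 4 were higher in females, and H2-Aa and H2-Ab1 were called lower (median -0.52). The part of either list in the members' lower values was not tested.

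For genotype by sex, 0 of 49 members were called for Ahr-/- and WT (background 0%), and 0 with voom weights. At an unadjusted p below 0.05 there were 6 (12.2%, against 4.70% of all genes). These became 0 without Ahr-/- F2 or M1, 2 without WT M1, WT M2 or Ahr-/- F1, 3 without WT F3 or Ahr-/- M2, 10 without Ahr-/- F3 and 11 without WT F2, while the share of all genes ran from 2.53% (without Ahr-/- M1) to 10.9% (without WT F2). With sample weights there were 17 of 49 (18.1% of all genes). For the libraries labelled Ahrr-/- and WT 0 of 54 were called (background 0%), and 0 with voom weights. At an unadjusted p below 0.05 there were 7 (13.0%, against 4.71% of all genes). These became 1 without WT F1 or Ahrr-/- F1, F2 or M3, 2 without WT M2 or Ahrr-/- M1, 4 without WT M1, 12 without WT F2, 18 without Ahrr-/- M2 and 22 without Ahrr-/- F3, and the share of all genes ran from 2.19% to 15.8%. Sample weights gave 17 of 54 (16.3% of all genes).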

How the data were processed

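The authors aligned single-ended reads to GRCm38 and counted genes with nf-core/rnaseq (RSEM 1.3.0, STAR 2.5.2 and R 4.0.3 in the submitters' processing notes), and the deposited table holds DESeq2 variance-stabilized log2 values for 22708 genes. Inverting the transformation, with its lowest value (5.02) taken as 0 counts, gave whole numbers for 100.0% of the table (tolerance 0.0001). Genes were named by Entrez ID.

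Differences came from limma 3.58.1 in R 4.3.3 (eBayes with trend, sex as covariate, Benjamini-Hochberg over all genes tested). Values are given for called members, the 3 most abundant of each role and fixed lists; members that are not detected have their largest count only, and others are named for detection. Members and lists were chosen with earlier results of these data known. Alternatives were filters, scaling, trend, sample weights, voom, covariates and leaving out samples. Figures used matplotlib 3.10.9, tables pandas 2.3.3 and numpy 2.4.6, p adjustment scipy 1.17.1, all in Python 3.11.15.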

Additional observations from a re-analysis of the deposited data

Results flagged for a closer look

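The 21 quantities examined, 16 members and 5 library measures, gave 63 groups of 6 samples, in each of which the gap of an extreme sample was compared with the range (Dixon's test); chance marks about 1 in 20 groups. Cyp4v3 had a log2 value of 9.04 in Ahr-/- F3, against 8.64 to 8.79 in the other Ahr-/- samples. WT F3 had a count for 20244 genes, against 15146 to 16526 in the other WT libraries. Ahr-/- F3 had a count for 19694 genes, against 15479 to 16704. Of the members, 142 had a count in WT F3, against 79 to 97 in the other WT libraries. In Ahr-/- F3 140 members had a count, against 79 to 101.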

How the results depend on the processing

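The 19 called differences of single members kept their sign in all 482 alternative values and passed the threshold in 355 of them. Leaving out 1 sample at a time gave 3 to 6 called members for Ahr-/- minus WT (5.48% to 9.89% of all genes), 0 to 0 for Ahrr-/- minus WT (0.0345% to 0.216%), 5 to 25 for Ahrr-/- minus Ahr-/- (7.12% to 22.3%), 0 to 3 for female minus male (1.24% to 6.40%), 0 to 0 for both genotype by sex results (0%) and 65 to 67 detected members. For Ahr-/- minus WT (4 of 49 called, 8.84% of all genes) it was 2 of 54 with all 18 samples in one fit (4.82%) and 8 of 49 with the enterocyte list mean as covariate (12.3%). For Ahrr-/- minus Ahr-/- (15 of 56, 14.9% of all genes) it was 8 of 152 with no minimum mean (5.78%), 5 of 12 with a minimum 3 above the lowest value (15.4%), 5 of 56 with no sex covariate (8.66%), 3 of 56 with the enterocyte covariate (3.32%) and 2 of 50 without Ahrr-/- F3, M1 and M3 (5.53%). With fewer genes tested the stricter minimum has the larger share of members. Female minus male gave 6 of 54 with sample weights (11.4%). At least 1 count in 1 sample gave 158 detected members, and at least 50 counts in 6 samples 36. For the marker lists of Ahrr-/- minus Ahr-/- (0 called) sums gave 5 and log2 sums 4. The enterocyte covariate, and the fits without Ahrr-/- F3, M1 and M3 and without WT F3 and Ahr-/- F3 were chosen after seeing the data. The log2 sums were computed before the plain sums that had been planned, and the plain sums were taken up with the log2 result known. Beyond fewer samples or genes, the causes were not tested.

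Whether replicate numbers pair the samples cannot be settled from the correlations below. WT F3 and Ahr-/- F3, which count the most genes, share a number and a sex. Correlations of samples with the same number and sex ran from -0.27 to 0.47 for WT and Ahr-/-, -0.59 to 0.33 for WT and the libraries labelled Ahrr-/-, and -0.34 to 0.33 for the Ahrr-/- and Ahr-/- labels; 1, 3 and 2 of 6 pairs were above 0.1, and 2, 1 and 2 of 6 samples correlated best with their own number. With the replicate block the counts were 4 of 49 (8.09% of all genes), 0 of 54 (0.0346%) and 23 of 56 (1946 of 11474 genes); the 4 include Cyp4f13 (0.48, adjusted p = 0.0273) in place of Cyp4v3 (adjusted p = 0.0501). Whether depth limits the 63 members under 10 counts in every sample was not tested.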
